A study of Mus musculus with 4 samples.

Results

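The levels of 10 integrated stress response genes, of the 23337 gene symbols counted, were followed in the hearts of mice that lack PIMT in cardiomyocytes. The genes were taken by name, with earlier results of these data known, and all 10 were found. They encode the transcription factors ATF4 (*Atf4*), ATF3 (*Atf3*), ATF5 (*Atf5*) and CHOP (*Ddit3*), the pseudokinase TRIB3 (*Trib3*), the biosynthetic enzymes ASNS, PHGDH and MTHFD2 (*Asns*, *Phgdh*, *Mthfd2*) and the secreted factors GDF15 and FGF21 (*Gdf15*, *Fgf21*). PIMT, the RNA cap hypermethylase and coactivator binding protein encoded by *Tgs1*, was deleted with Cre recombinase driven by the α-myosin heavy chain promoter, which is active in cardiomyocytes around birth, on a loxP-flanked allele. Hearts of csPIMT-/- mice and of PIMT fl/fl controls, which carry the floxed allele, were taken at 2 and 6 months of age. Each of the 4 groups was 1 library of polyadenylated RNA from the pooled hearts of 5 C57BL6/J mice of both sexes, so no group had a replicate and the mice within a pool cannot be told apart.

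In the integrated stress response, kinases that sense amino acid shortage, unfolded proteins in the endoplasmic reticulum, double-stranded RNA or heme loss phosphorylate the translation factor eIF2α. General translation then falls while *Atf4* mRNA is translated more, and ATF4 with its partners raises the transcription of genes for amino acid uptake, serine and one-carbon synthesis and tRNA charging. In muscle and heart with faulty mitochondria, the same program is known to raise GDF15 and FGF21, which are secreted into the blood.

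The libraries held between 29823073 and 40705783 reads assigned to genes. The deposited normalized counts are compared here as levels, and a ratio is the csPIMT-/- library over the control library of the same age, with a 95% confidence interval (CI) that covers counting error only and not the variation between mice. *Tgs1*, the deleted gene, had 670 and 928 reads in the 2- and 6-month controls and 130 and 156 reads in the csPIMT-/- libraries, a ratio of 0.271 (95% CI 0.223 to 0.327) at 2 months and 0.194 (95% CI 0.162 to 0.23) at 6 months. These ratios were 0.641 and 0.526 once the GC trend described next was subtracted. The 4 libraries differed in dissection markers: the summed normalized count of 4 atrial genes was 2560 in the 2-month control against 29128 to 132951 in the others, and that of 6 lung genes was 1170 in the 2-month csPIMT-/- library against 22.0 to 97.8 in the others. Of 5 brown fat genes, the sum was 7771 in the 2-month csPIMT-/- library and 1902 to 3051 in the others. Cardiomyocyte markers summed to between 975331 and 1292840. Of 3 blood genes, the hemoglobin genes *Hba-a1* and *Hbb-b1* were listed at 0 in all 4 libraries. The other, *Alas2*, had 3832 and 2855 normalized counts in the 2- and 6-month controls. In the 2- and 6-month csPIMT-/- libraries it had 2313 and 12284. Over genes, ratios were higher for GC-rich transcripts, with Spearman's rho 0.594 at 2 months and 0.62 at 6 months over 13748 and 13787 genes of shared libraries, and the rho between the 2 controls was -0.27. The part of tissue composition in the values that follow was not tested, and each ratio of the 10 genes that moved by more than 1.5 times when the GC trend was subtracted is given in both forms.

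Because ATF4 and its partners bind composite C/EBP-ATF elements, the 250 bases before each RefSeq start site (build GRCm38.p6) were searched on both strands for the letters TGATGNAA. All 10 genes had an entry, with 12 start sites in all. Of these 12 windows 3 held a match, in 3 different genes, against 3.45% of 32851 promoter windows of the same length. The 3 windows are shown because they are the members with a match. In each line the strand is that of the gene, 5′ to 3′, and the capitals mark the match, which in *Atf3* and *Fgf21* reads as the reverse complement of the searched letters.
Atf3: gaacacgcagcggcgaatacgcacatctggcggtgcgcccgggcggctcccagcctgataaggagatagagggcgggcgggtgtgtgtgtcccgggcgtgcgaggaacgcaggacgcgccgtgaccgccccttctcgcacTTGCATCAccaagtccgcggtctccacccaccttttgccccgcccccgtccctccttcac
Asns: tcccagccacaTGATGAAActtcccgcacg
Fgf21: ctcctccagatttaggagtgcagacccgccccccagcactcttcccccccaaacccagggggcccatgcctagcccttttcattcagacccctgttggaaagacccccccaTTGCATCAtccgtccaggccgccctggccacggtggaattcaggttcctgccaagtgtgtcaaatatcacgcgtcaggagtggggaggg
The *Atf3* stretch is chr1:191183384-191183583, minus strand, and its match begins 110 bases before this start site, within the span of the annotated gene, which has a start further upstream. The *Asns* stretch is chr6:7693214-7693243, minus strand, with the match 23 bases before the RefSeq start and inside the first exon of a longer GENCODE transcript. The *Fgf21* stretch is chr7:45615541-45615740, minus strand, with the match 139 bases before the start. The cyclic AMP response element TGACGTCA was found in none of the 10 genes and in 1.55% of all windows, so no member held both motifs. The 3 genes with a match did not share a pattern of levels: *Fgf21* and *Asns* were higher in both csPIMT-/- libraries than in both controls, and *Atf3* was not.

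At 2 months, 5 of the 10 genes were more than 2-fold higher in the csPIMT-/- heart (*Trib3*, *Asns*, *Phgdh*, *Gdf15* and *Fgf21*) and 1, *Atf3*, was more than 2-fold lower, where 16.4% and 23% of all 15152 genes compared were past these limits. At 6 months, 4 of the 10 were more than 2-fold higher (*Atf3*, *Atf5*, *Gdf15* and *Fgf21*) and none was lower, where 16% and 25.7% of 15218 genes were. The median log2 ratio of the 10 genes was 0.86 at 2 months and 0.79 at 6 months (ratios of 1.81 and 1.73), while that of all genes was -0.03 at both ages. *Gdf15* and *Fgf21* were the members more than 2-fold higher at both ages. Between the control libraries, 6 months over 2 months, 1 of the 9 members with enough reads was more than 2-fold higher (*Trib3*) and 1 lower (*Atf3*), against 8.15% and 5.21% of 15132 genes.

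**Figure D1:**
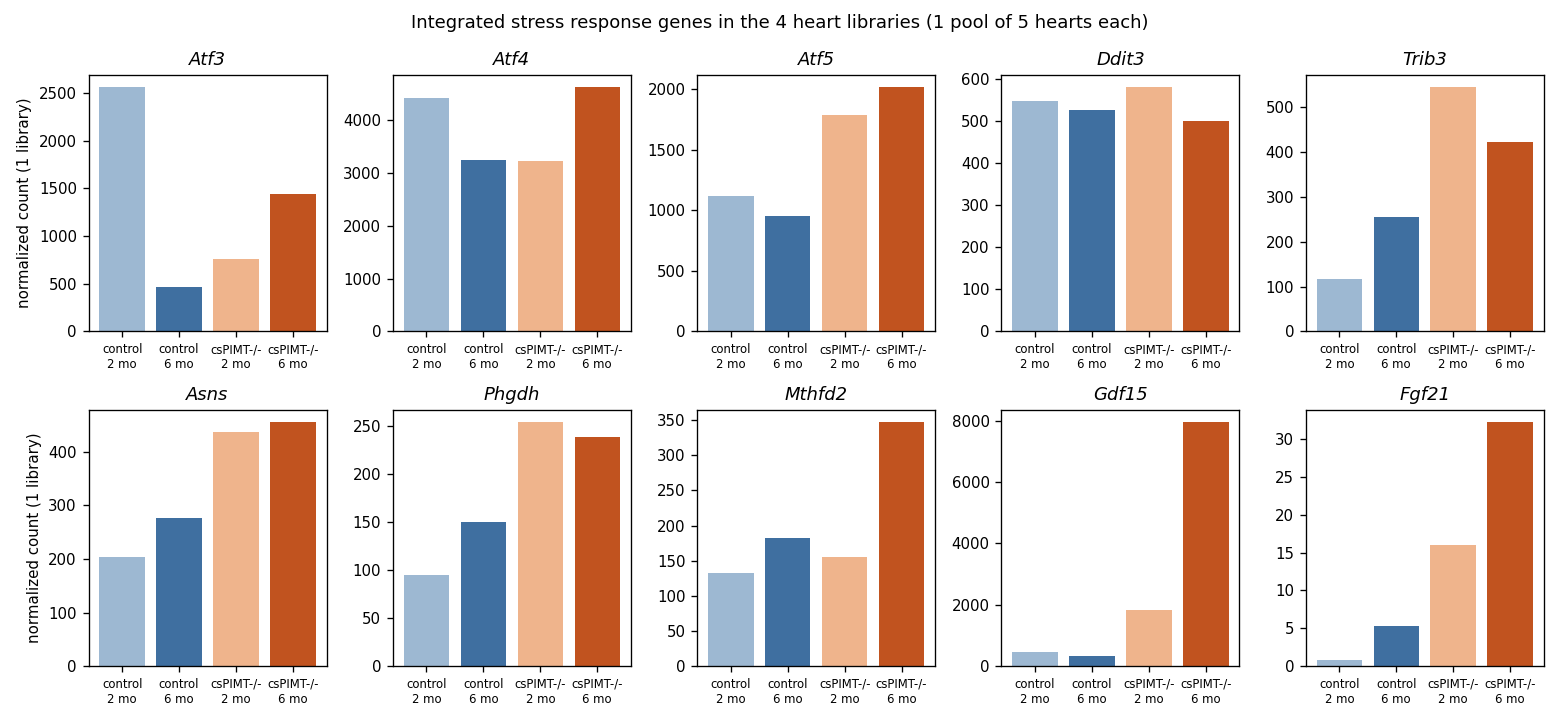
Normalized count (vertical axes, linear, from 0) of each of the 10 genes in the 4 libraries, 1 bar per library, with no error bars because each group is 1 pool. *Gdf15* stands at 7959 in the 6-month csPIMT-/- bar and at 326 in the control of that age, *Atf3* is highest in the 2-month control at 2564, and the 4 *Ddit3* bars lie between 499 and 581.

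Both secreted factors were more than 2-fold higher in the csPIMT-/- heart at each age. GDF15 is a stress cytokine of the TGF-β superfamily that acts on the hindbrain to lower appetite. Its gene, *Gdf15* (chr8:70629393-70632456, minus strand), had 459 normalized counts in the 2-month control, 326 in the 6-month control, 1837 in the 2-month csPIMT-/- library and 7959 in the 6-month csPIMT-/- library. Both csPIMT-/- libraries were above both controls, and the lower of them was 4-fold the higher control. The ratio was 3.92 (95% CI 3.55 to 4.34) at 2 months and 23.8 (95% CI 21.4 to 26.4) at 6 months. At 2 months 790 of the 15152 genes compared had a higher ratio, and at 6 months 72 of 15218 had. With the GC trend subtracted (*Gdf15* transcripts are 61.3% GC) the ratios were 2.37 and 14. Within the csPIMT-/- libraries, *Gdf15* was 4.21-fold higher at 6 than at 2 months, whereas the 6-month control was at 0.679 of the 2-month control.

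FGF21 is a hormone of the starvation and mitochondrial stress response. *Fgf21* (chr7:45613886-45615490, minus strand) was near the limit of detection, with 1 read in the 2-month control, 6 in the 6-month control, 13 in the 2-month csPIMT-/- library and 31 in the 6-month csPIMT-/- library. The order of the 4 libraries was that of genotype and then age. The ratio was 18.2 at 2 months with a 95% CI from 2.73 to 772, set by the single control read, and 5.95 (95% CI 2.45 to 17.5) at 6 months. With 0.5 reads added, as used for log2 ratios, these were 12.6 and 5.58, and against the control of the other age 2.82 and 24.7. The intervals of both ages lay above 2, and the size of the 2-month ratio could not be measured closely from so few reads. The study itself lists smaller rises of *Fgf21* at 2 months, by RNA-seq and by qPCR. Its RNA-seq value at 2 months is nearer to the ratio against the 6-month control, 2.82, than to the ratio against the 2-month control. At 6 months its values by both methods lie inside the interval found here. Per kilobase of transcript, *Fgf21* was the lowest of the 10 genes in all 4 libraries, at 0.91 to 33.9 normalized counts per kb. The receptors of these hormones were among the listed genes: *Gfral*, the GDF15 receptor, had no read in any library (a count of 0 allows up to 3), the FGF21 co-receptor *Klb* had 9, 15, 46 and 2 reads in the 2- and 6-month controls and the 2- and 6-month csPIMT-/- libraries, and the FGF receptor *Fgfr1* had ratios of 2.03 (95% CI 1.91 to 2.16) and 2.24 (95% CI 2.13 to 2.36).

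The mRNA of the transcription factor at the head of the pathway was not past 2-fold at either age. *Atf4* (chr15:80255184-80257541, plus strand) had 4416 normalized counts in the 2-month control, 3237 in the 6-month control, 3227 in the 2-month csPIMT-/- library and 4619 in the 6-month csPIMT-/- library. The genotypes overlapped, and the 2 controls differed from each other as much as either did from its csPIMT-/- library. The ratio was 0.716 (95% CI 0.683 to 0.751) at 2 months and 1.39 (95% CI 1.33 to 1.45) at 6 months, and 0.964 and 1.03 against the control of the other age. After subtraction of the GC trend they were 0.526 at 2 months and 0.988 at 6 months. Per kilobase, *Atf4* was the highest of the 10 genes in both controls and in the 2-month csPIMT-/- library, above 90.5% to 94.7% of the 14133 genes with an annotated length that passed the filter on reads, and in the 6-month csPIMT-/- library only *Gdf15* was above it. ATF4 is regulated mainly by translation, which mRNA counts do not measure.

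*Atf5* (chr7:44812256-44816658, minus strand), which encodes a factor that acts in the mitochondrial unfolded protein response, had 1118 and 953 normalized counts in the 2- and 6-month controls and 1784 and 2018 in the csPIMT-/- libraries. The 2 genotypes did not overlap. The ratio was 1.56 (95% CI 1.45 to 1.69) at 2 months and 2.06 (95% CI 1.91 to 2.22) at 6 months. *Atf5* has the highest GC content of the 10 genes, 61.7%, and with the GC trend subtracted the ratios were 0.944 and 1.21, so the 2-month value lay on the other side of 1. *Nup62* and *Il4i1* overlap *Atf5* on the opposite strand, and whether the counting used strand is not given in the sources used here, so its counts are uncertain to that extent.

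*Ddit3* (chr10:127290774-127296288, plus strand), which encodes the proapoptotic factor CHOP, had 549 and 525 normalized counts in the 2- and 6-month controls and 581 and 499 in the csPIMT-/- libraries. All 4 libraries lay within a narrow band, and no difference was detectable at either age at this depth. The ratio was 1.04 (95% CI 0.919 to 1.17) at 2 months and 0.927 (95% CI 0.82 to 1.05) at 6 months. Counting error alone leaves ratios down to 0.82 and up to 1.17 possible, before any variation between mice. After subtraction of the GC trend the ratios were 0.708 and 0.625. *Ddit3* overlaps *Mars* and *Gm4189* on the opposite strand, with the same uncertainty as *Atf5*.

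*Atf3* was the member whose ratio differed most between the ages. *Atf3* (chr1:191170296-191218039, minus strand), an immediate early gene as well as an ATF4 target, had 2564 normalized counts in the 2-month control, 463 in the 6-month control, 755 in the 2-month csPIMT-/- library and 1439 in the 6-month csPIMT-/- library. The 2 controls were the highest and the lowest of the 4 libraries, with both csPIMT-/- libraries between them. The ratio was 0.288 (95% CI 0.264 to 0.315) at 2 months and 3.02 (95% CI 2.73 to 3.35) at 6 months. Against the control of the other age these became 1.57 and 0.55, so the direction at each age depended on which control was used. The study lists *Atf3* by RNA-seq at 1.57 at 2 months, higher and not lower in csPIMT-/-, and at 3.02 at 6 months. Its qPCR value at 2 months was also higher, with no mark of significance. The listed 1.57 equals the ratio found here against the 6-month control.

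Among 14 immediate early genes, 3 with a similar order of levels were picked out after their values were seen. The orphan nuclear receptor gene *Nr4a1* had 5101 normalized counts in the 2-month control and 595 in the 6-month control, and 704 and 2697 in the csPIMT-/- libraries. The antiproliferative gene *Btg2* had 9862 and 3010 in the controls and 2926 and 6160 in the csPIMT-/- libraries, and the transcription factor gene *Egr2* had 318 and 42.2 against 105 and 170. In all 3, as in *Atf3*, the 2-month control was the highest library, though the lowest for *Btg2* was the 2-month csPIMT-/- library. *Egr3*, with few reads, also had its highest level there. It had 46 and 11 reads in the 2- and 6-month controls and 20 and 16 in the csPIMT-/- libraries. Of the whole list, 3 of 14 were more than 2-fold higher and 3 lower at 2 months (16.4% and 23% of all genes), and 4 were higher and 2 lower at 6 months (16% and 25.7%). *Egr3* and *Fosb* were also named after their values were seen. *Fosb* went the other way, with 95.2 normalized counts in the 2-month control and 755 in the 6-month control. Atrial markers were also lowest in the 2-month control, as given above, and their part in the level of *Atf3* was not tested.

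**Figure D2:**
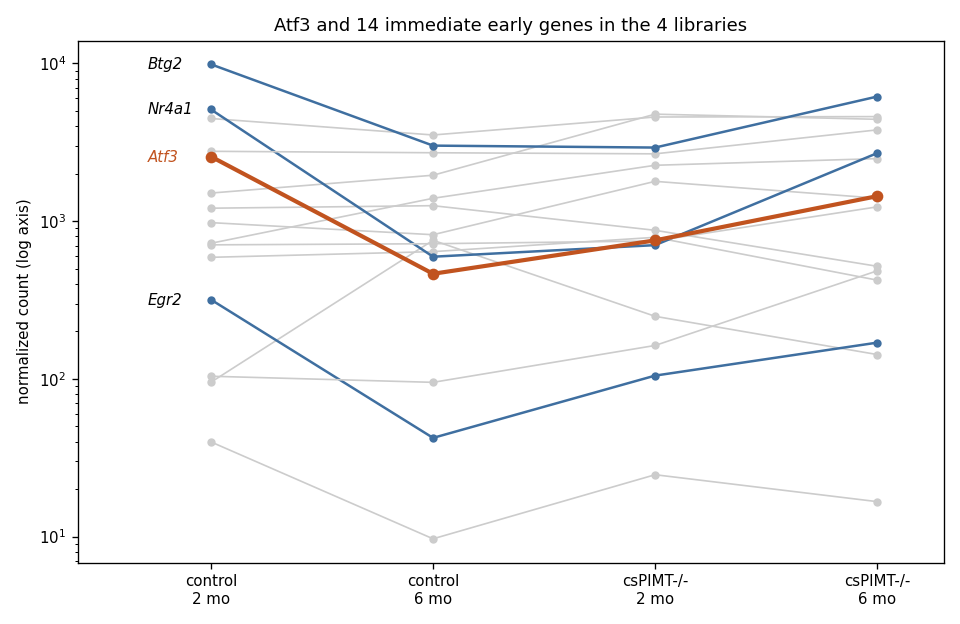
Normalized count (vertical log axis) of *Atf3* (orange), of *Nr4a1*, *Btg2* and *Egr2* (blue) and of the 11 other listed immediate early genes (grey) in the 4 libraries, with lines joining the libraries of 1 gene. *Atf3* is at 2564 in the 2-month control and at 463 in the 6-month control, and the 3 blue genes also peak in the 2-month control.

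*Trib3* (chr2:152337422-152344032, minus strand) encodes a pseudokinase that is induced by ATF4 and CHOP and restrains them in turn. It had 117 normalized counts in the 2-month control, 256 in the 6-month control, 545 in the 2-month csPIMT-/- library and 422 in the 6-month csPIMT-/- library. Both csPIMT-/- libraries were above both controls. The ratio was 4.57 (95% CI 3.76 to 5.59) at 2 months and 1.61 (95% CI 1.38 to 1.88) at 6 months, and the control itself was 2.09-fold higher (95% CI 1.7 to 2.59) at 6 than at 2 months. Against the control of the other age the ratios were 2.06 and 3.54. With the GC trend subtracted they were 2.86 at 2 months and 0.996 at 6 months, which places the 6-month value at no difference.

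Of the 3 enzymes, *Asns* and *Phgdh* were higher in both csPIMT-/- libraries than in both controls and *Mthfd2* was not. *Asns* (chr6:7675169-7693254, minus strand), which encodes asparagine synthetase, had 203 and 276 normalized counts in the 2- and 6-month controls and 436 and 456 in the csPIMT-/- libraries. The genotypes did not overlap. The ratio was 2.10 (95% CI 1.78 to 2.49) at 2 months and 1.61 (95% CI 1.39 to 1.86) at 6 months. *Asns* has the lowest GC content of the 10 genes, 47.7%, and its ratios with the GC trend subtracted were higher, 2.79 and 2.16. Against the control of the other age they were 1.53 and 2.19, so the age at which *Asns* was past 2-fold depended on the control.

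*Phgdh* (chr3:98313170-98339990, minus strand), which encodes the enzyme that starts serine synthesis from glucose, had 94.3 and 150 normalized counts in the 2- and 6-month controls and 254 and 238 in the csPIMT-/- libraries. Again both csPIMT-/- libraries were above both controls. The ratio was 2.64 (95% CI 2.08 to 3.36) at 2 months and 1.55 (95% CI 1.27 to 1.90) at 6 months. With the GC trend subtracted it was 1.68 at 2 months and 0.984 at 6 months, and against the control of the other age 1.64 and 2.47. A pseudogene, *Phgdh-ps1*, is annotated but is not among the counted symbols, so reads shared with it cannot be separated.

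*Mthfd2* (chr6:83305691-83325908, minus strand), which encodes a mitochondrial enzyme of one-carbon metabolism, had 132 and 182 normalized counts in the 2- and 6-month controls and 155 and 347 in the csPIMT-/- libraries. The 2-month csPIMT-/- library lay between the 2 controls. At 2 months no difference was detectable at this depth, with a ratio of 1.15 (95% CI 0.901 to 1.47), and at 6 months the ratio was 1.86 (95% CI 1.56 to 2.22). Against the control of the other age the ratios were 0.827 and 2.57. Within the csPIMT-/- libraries *Mthfd2* was 2.17-fold higher (95% CI 1.77 to 2.69) at 6 than at 2 months.

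**Figure D3:**
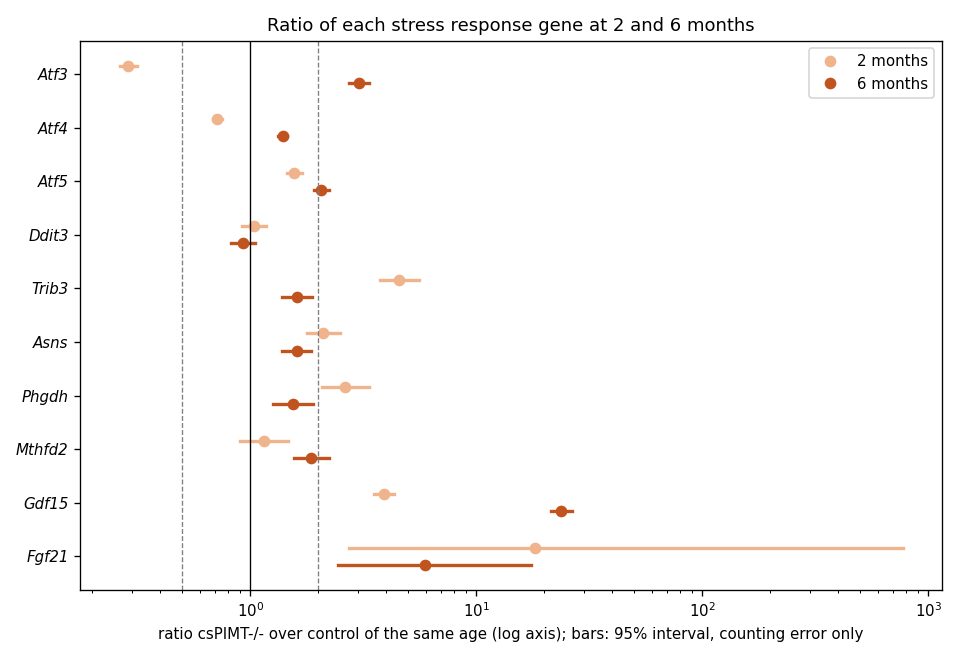
Ratio of csPIMT-/- over control of the same age (horizontal log axis) for each gene at 2 months (light) and 6 months (dark), with bars for the 95% counting interval and dashed lines at 2-fold. *Gdf15* reaches 23.8 at 6 months, *Atf3* lies at 0.288 and 3.02 on either side of 1, and the *Fgf21* bar at 2 months runs from 2.73 to 772.

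**Figure D4:**
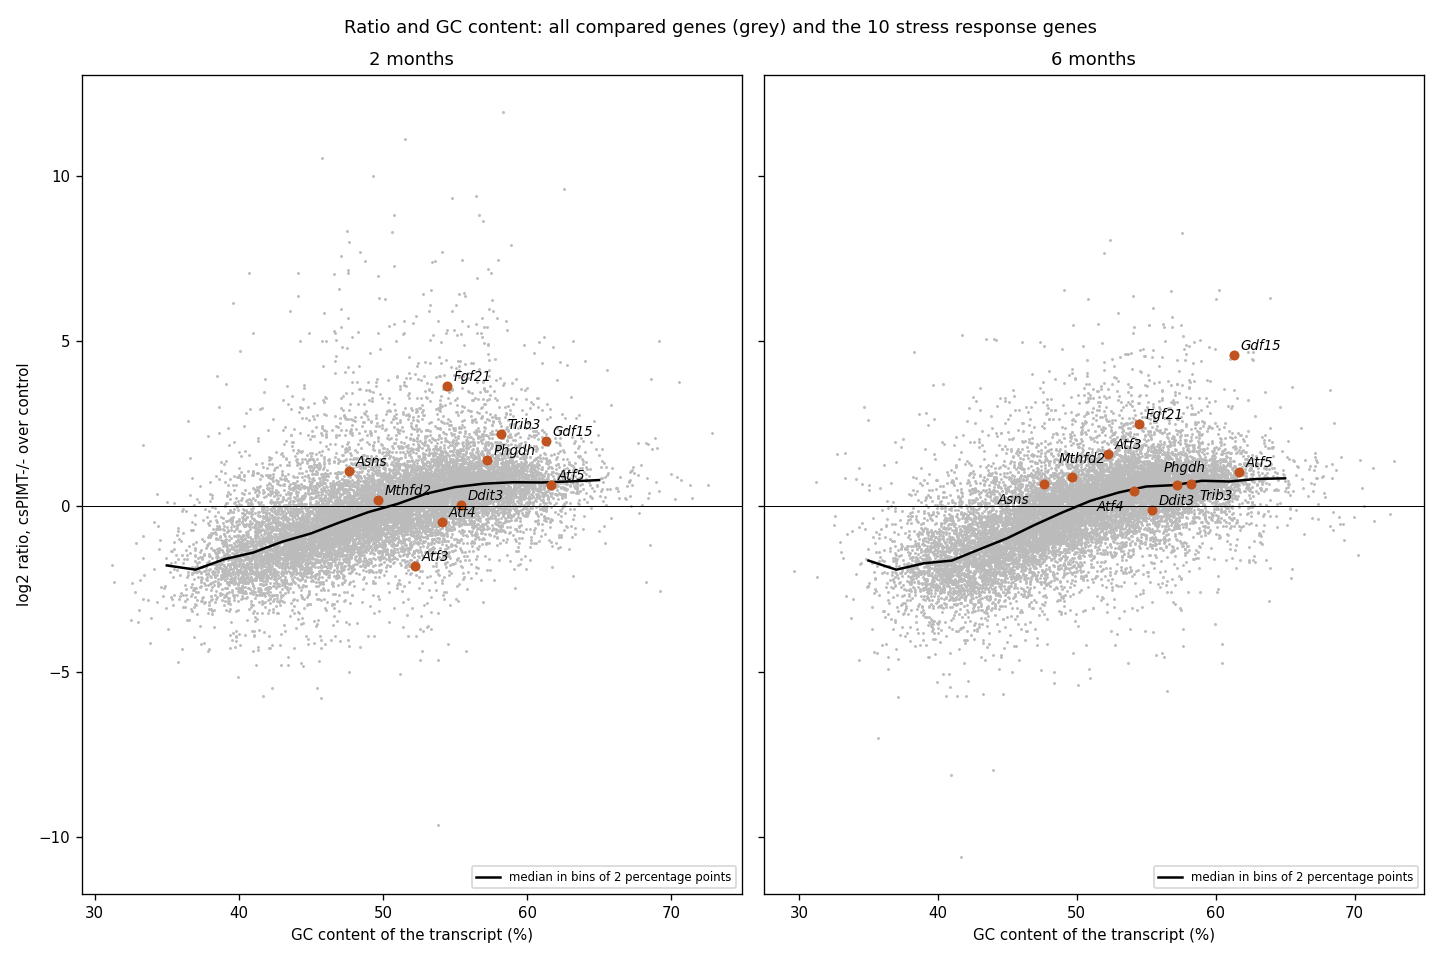
Log2 ratio of csPIMT-/- over control (vertical axis) against the GC content of the transcript in percent (horizontal axis) for all compared genes with a GC value (grey) and the 10 stress response genes (orange), with the median of each bin of 2 percentage points as a black line. The line climbs from below 0 to above 0 with GC content at both ages, *Gdf15* at 6 months is far above it, and *Atf5*, at 61.7% GC, is close to it at 2 months.

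Both ages were then fitted in 1 model, with the 2 ages standing in for replicates of each genotype. In a limma fit of genotype and age to 14935 genes, with 4 libraries, 1 residual degree of freedom and Benjamini-Hochberg adjustment over all genes, 2 of the 10 genes rose and none fell. All genes were called higher at 12.1% and lower at 17.9%, so 2 of 10 is a share of the same order as the background. *Gdf15* rose by a log2 difference of 3.31 (SE 0.592, limma adjusted p = 0.0182) and *Atf5* by 0.89 (SE 0.234, limma adjusted p = 0.0411). Fits with 1 library left out also had no age term, so age and genotype are mixed in them. In these, the difference of *Gdf15* ranged from 2.19 without the 6-month csPIMT-/- library to 4.30 without the 2-month one. *Trib3* had a log2 difference of 1.48 (limma adjusted p = 0.0608), *Fgf21* of 2.81 (limma adjusted p = 0.065), *Asns* of 0.92 (limma adjusted p = 0.0821) and *Phgdh* of 1.05 (limma adjusted p = 0.103). The differences of *Mthfd2* (0.59), *Atf4* (0.04), *Ddit3* (0.01) and *Atf3* (-0.06) had limma adjusted p values of 0.285, 0.924, 0.971 and 0.959. Both calls were lost with the GC trend subtracted, where *Gdf15* had a log2 difference of 2.53 (limma adjusted p = 0.146) and *Atf5* one of 0.10 (limma adjusted p = 0.796), and no gene of the whole table was called. Both were also lost with no mean trend of the variance (limma adjusted p = 0.0813 and 0.111). Without the 6-month control and the age term, the log2 difference was 3.05 for *Gdf15* and 0.76 for *Atf5*, and neither was called. *Atf5* was also not called without each of the other libraries, again with no age term. Of 5 macrophage markers, 4 rose in the same fit and their summed level was 7013 and 18073 in the controls against 22033 and 29608 in the csPIMT-/- libraries. In whole heart RNA, a change in the share of a cell type and a change in RNA per cell cannot be told apart.

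By order of levels, 6 of the 10 genes (*Atf5*, *Trib3*, *Asns*, *Phgdh*, *Gdf15* and *Fgf21*) were higher in both csPIMT-/- libraries than in both controls and none was lower in both. Of all 15589 genes, 34.6% were above and 35.1% below in this sense. With the GC trend of each library subtracted, an alternative chosen after seeing the data, 3 of the 10 were above (*Asns*, *Gdf15* and *Fgf21*) and 1, *Ddit3*, was below, against 29.7% and 27.8% of 14133 genes. *Gdf15*, *Fgf21* and *Asns* were thus the members above both controls in both forms, and *Atf3*, *Atf4* and *Mthfd2* overlapped between genotypes in both.

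The other genes of the pathway were read from lists. Every limma call below was lost with the GC trend subtracted and with no mean trend, as no gene of the table was then called. Counts past 2-fold are to be read against 16.4% higher and 23% lower over all genes at 2 months and 16% and 25.7% at 6 months, and limma counts against 12.1% and 17.9%. Among 13 sensors and regulators of the response, none was more than 2-fold higher and 2 were lower at 2 months, and 2 were higher and 2 lower at 6 months, all at or below the shares over all genes. Those lower at both ages were *Eif2s1*, which encodes eIF2α itself, with ratios of 0.243 (95% CI 0.22 to 0.267) and 0.248 (95% CI 0.227 to 0.269), and *Eif2ak2*, the gene of the double-stranded RNA sensor PKR, with 0.47 (95% CI 0.409 to 0.539) and 0.238 (95% CI 0.21 to 0.269). Both fell in the limma fit, with adjusted p = 0.0124 and 0.0283, and their transcripts are low in GC, 40.8% and 43.9%. The 2 that rose, *Eif2b5* (log2 difference 1.04, limma adjusted p = 0.0213) and *Eif2b2* (0.85, limma adjusted p = 0.0407), encode subunits of the eIF2B exchange factor. *Ppp1r15a*, the gene of the eIF2α phosphatase subunit GADD34, named after its values were seen, had a ratio of 0.983 at 2 months and 3.16 at 6 months.

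Among 23 further ATF4 target genes, 22 had enough reads for a ratio. At 2 months 7 were more than 2-fold higher and 5 lower (16.4% and 23% of all genes), and at 6 months 10 were higher and 4 lower (16% and 25.7%). By limma, 8 of 21 fitted rose and 2 fell (12.1% and 17.9%), and the median log2 difference of the 21 was 1.01 against 0.04 for all genes. In order of levels, 12 of the 23 were above both controls and 7 below (34.6% and 35.1% of all genes), and 9 and 6 with the GC trend subtracted (29.7% and 27.8%). *Slc1a5*, a glutamine transporter gene, had ratios of 4.64 (95% CI 4.31 to 4.99) and 3.10 (95% CI 2.92 to 3.29) and rose by a log2 difference of 1.97. The other carrier genes of the list differed among themselves: *Slc1a4*, *Slc3a2* and *Slc7a5* rose by log2 differences of 1.54, 1.38 and 1.48, while *Slc6a9* (0.65), *Slc7a1* (-0.45) and *Slc38a2* (-0.83) did not pass, all named after their values were seen. *Sqstm1*, the gene of the autophagy receptor p62, had ratios of 3.02 (95% CI 2.96 to 3.09) and 3.07 (95% CI 3.01 to 3.12). *Cebpg*, which encodes a dimer partner of ATF4, was lower at 0.215 (95% CI 0.188 to 0.244) and 0.294 (95% CI 0.267 to 0.324). The translation repressor gene *Eif4ebp1* and the glutathione-degrading *Chac1*, also named after their values were seen, rose by log2 differences of 1.26 and 1.46. *Ddit4*, an inhibitor of mTORC1 named in the same way, was at 0.443 at 2 months and 9.94 at 6 months, opposite sides of 1 as for *Atf3*. A C/EBP-ATF match was found in 5 of the 18 genes of this list with a promoter entry (*Chac1*, *Herpud1*, *Nupr1*, *Slc7a11* and *Vldlr*). Of these, *Chac1* and *Herpud1* rose and *Vldlr* fell in the limma fit.

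Of 12 other genes of serine, one-carbon and proline synthesis, 1 was more than 2-fold higher and 1 lower at 2 months (16.4% and 23% of all genes), and none was higher and 2 were lower at 6 months (16% and 25.7%). *Aldh1l2*, a mitochondrial folate enzyme, was more than 2-fold lower at both ages, at 0.204 (95% CI 0.173 to 0.241) and 0.154 (95% CI 0.13 to 0.182). By limma, 1 of the 12 rose (*Shmt2*, the mitochondrial serine hydroxymethyltransferase, log2 difference 0.89) and 1 fell (*Aldh1l2*), where 12.1% and 17.9% of all genes did. In order of levels, 4 of the 12 were above both controls and 3 below (34.6% and 35.1% of all genes), and 6 and 2 with the GC trend subtracted (29.7% and 27.8%). Of 13 genes of tRNA charging and export, none was more than 2-fold higher and 1 lower at 2 months, and 1 was higher and 1 lower at 6 months, all below the shares over all genes. *Eprs*, the glutamyl-prolyl-tRNA synthetase gene, was at 0.493 and 0.393. In the limma fit 3 of the 13 rose and 3 fell (12.1% and 17.9% of all genes).

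Mitochondrial chaperones and proteases fold and clear the proteins of the organelle. Of 11 genes, none was more than 2-fold higher and 3 were lower at 2 months (16.4% and 23% of all genes), and 2 were higher and 4 lower at 6 months (16% and 25.7%). *Hspd1*, the gene of the chaperonin HSP60, was at 0.233 (95% CI 0.221 to 0.246) and 0.119 (95% CI 0.112 to 0.126), *Yme1l1*, an inner membrane protease gene, at 0.202 and 0.204, and *Clpx* of the matrix protease at 0.388 and 0.309. By limma 3 of 11 rose, *Clpp*, *Htra2* and *Lonp1*, and 4 fell (12.1% and 17.9% of all genes).

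Of 18 genes of the endoplasmic reticulum unfolded protein response, 1 was higher and 3 were lower past 2-fold at each age, below the shares over all genes at both. The chaperone gene *Hsp90b1* was at 0.286 and 0.21 and *Dnajc3*, which encodes an inhibitor of the eIF2α kinases, at 0.371 and 0.444. By limma 2 of 18 rose and 2 fell, and among the 14 immediate early genes 3 rose and none fell, with *Junb* at ratios of 3.10 and 2.20 (12.1% and 17.9% of all genes). Among the 5 of 7 receptor genes with enough reads, 2 were higher and 1 lower past 2-fold at each age. They were not the same genes. *Klb* (7.14) and *Fgfr1* were higher and *Ret* (0.398) lower at 2 months. At 6 months *Fgfr1* and *Fgfr3* (7.40) were higher and *Klb* (0.154), with its few reads, was lower. By limma *Fgfr1* alone of these 5 rose.

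**Figure D5:**
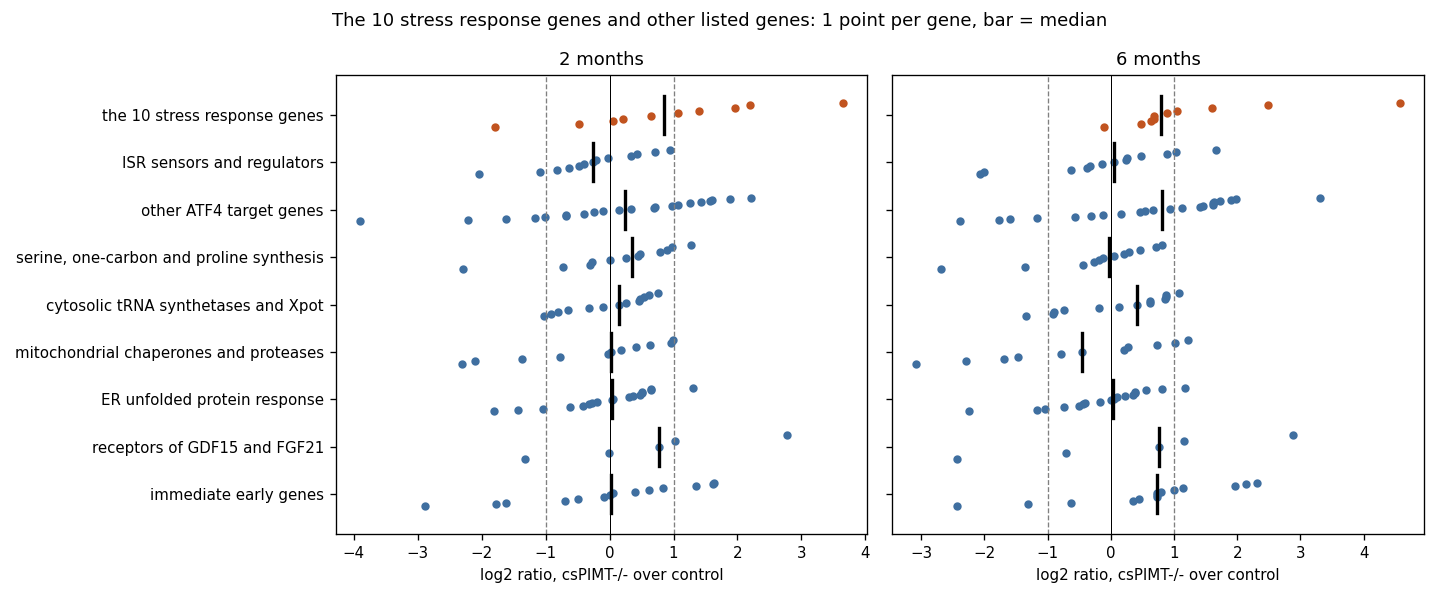
Log2 ratio of csPIMT-/- over control (horizontal axis) at 2 months (left) and 6 months (right) for the 10 stress response genes (orange) and for each list of related genes (blue), 1 point per gene with enough reads, a black bar at the median and dashed lines at 2-fold. The medians of the 10 genes are 0.86 and 0.79, and the other lists spread over both sides of 0.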

How the data were processed

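RNA from 4 pools of 5 mouse hearts was sequenced as directional polyadenylated RNA libraries. Per the study's methods, the authors trimmed the reads, removed ribosomal RNA, aligned to mm10 with STAR, counted genes with htseq-count (HTSeq 0.6.1p1 in the submitters' processing notes) on a UCSC annotation and ran DESeq2. The deposited signal is a count divided by a size factor of the library. Dividing by the smallest value above 0 returned whole read counts for 100% of values, with a largest deviation of 4.9e-09 reads.

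Each pair of libraries was scaled by its median of ratios. Ratios took genes with at least 10 reads in 1 of them, Clopper-Pearson intervals on the read counts (95%) and 0.5 reads added for log2. PCR reads are not independent molecules, so intervals cover counting error only. With 1 library per group, a ratio past 2-fold is a description without a p-value. limma 3.58.1 (R 4.3.3) was fitted to log2 of TMM-scaled reads plus 1 with genotype, age and a mean trend of the variance, after filterByExpr of edgeR 4.0.16. Its threshold was an adjusted p of 0.05, and nothing shows that the 2 ages vary as replicates would. edgeR and DESeq2 1.42.0 were alternatives. The steps were tested on simulated data with 200 changed genes. GC content and positions came from the GENCODE annotation of GRCm38, and promoters from RefSeq.

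The 10 genes and the lists were chosen with earlier results of these data known. The genes named are the 10, *Tgs1*, and up to 3 per list with the largest absolute mean log2 ratio. Those had to be past 2-fold in 1 direction at both ages, with at least 100 reads in 1 library of each age. Others are named for a limma call, a motif match or a link to a member's locus, or as receptors or markers. Naming by limma call also rests on the values. The rest are marked as chosen after seeing values.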

Additional observations from a re-analysis of the deposited data

Results flagged for a closer look

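For 3 of the 10 genes the ratio of csPIMT-/- over control lay on opposite sides of 1 at the 2 ages. *Atf3* was at 0.288 at 2 months and 3.02 at 6 months, *Atf4* at 0.716 and 1.39, and *Ddit3* at 1.04 and 0.927. With 1 library per group the difference between the ages was not tested. The counting intervals of *Ddit3* include 1 at both ages, and those of *Atf3* and *Atf4* do not.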

How the results depend on the processing

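The limma fit compared the genotypes within each age, and without the age term it called 1962 genes higher and 2691 lower. Setting each csPIMT-/- library against the control of the other age turned the log2 ratio of *Atf3* to 0.65 at 2 months and -0.86 at 6 months, and both controls summed turned it to -0.11 at 6 months. The control of the other age also gave 3 genes more than 2-fold higher and 0 lower at 2 months, in place of 5 and 1, and 6 higher and 0 lower at 6 months, in place of 4 and 0. The cause was not tested. In the limma fit, 4 of the 10 genes were called with no filter on low counts (*Fgf21* and *Trib3* added), 0 with no mean trend and 0 with the GC trend subtracted. Fewer than in the main fit were called when 1 library was left out, in fits that also had no age term. At an unadjusted p under 0.05, limma gave 2546 genes higher and 3385 lower with no mean trend. With the GC trend subtracted it gave 1696 and 1552. At this limit edgeR gave 3059 and 3576, and at an adjusted p under 0.05 it gave 1619 and 2508. The limma calls over all genes at an adjusted p, 4476 in all, were 0 with no mean trend and 0 with the GC trend subtracted. They ran from 329 without the 6-month control to 3656 without the 2-month csPIMT-/- library, with 1276 without the 2-month control. *Gdf15* was positive in every fit run, with an adjusted p of 0.0813 with no mean trend. *Trib3* was also called by DESeq2 (adjusted p = 0.0106). TMM factors, minimums of reads and a pseudocount of 5 reads moved no count of the 10 genes past 2-fold by more than 1.5 times. The few reads of *Fgf21* left its 2-month ratio at 4.19 with that pseudocount, against 12.6 with 0.5 reads.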
